A study of Mus musculus with 4 samples.

Results

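Ribosome biogenesis genes encode the proteins that transcribe, process, modify and assemble ribosomal RNA before mature subunits act in the cytoplasm. RNA polymerase I makes the precursor in the nucleolus, small nucleolar ribonucleoproteins (snoRNPs) guide its chemical modification, and further factors cut it and build the small and the large subunit around it. In muscle, growing myoblasts make ribosomes at a high rate, and the rate is known to fall as they leave the cell cycle and form myotubes. A list of 48 such genes was followed here, each through 1 Affymetrix probe set with a single gene symbol, taking the brightest one and avoiding the type prone to cross-hybridisation where another existed. Of these, 47 had such a probe set, out of 18193 genes with one on the array. Npm3 had none and is not described further.

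The samples came from C2C12, an immortalised mouse myoblast line. The cells carried either a plasmid for a short hairpin RNA against LSD1 (shLSD1, 2 arrays) or one for a non-targeting hairpin (shControl, 2 arrays), and both kinds were stable transfectants grown with 750 µg/mL hygromycin B. RNA was taken 48 hours after differentiation was induced by a change from 10% fetal bovine serum to 2% horse serum, with 25 mM glucose throughout. LSD1, encoded by Kdm1a, is a histone demethylase. The labels name 1 hairpin and 1 selected population for each group, so hairpin, selection and knockdown cannot be told apart, and they do not say whether the 2 arrays of a group are separate cultures.

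The arrays gave comparable data, and the labels were borne out by the targeted gene. Kdm1a had a signal of 922 and 1034.5 on the shLSD1 arrays, against 4603 and 4588 on the shControl arrays, which is -2.23 on the log2 scale (SE 0.07 with 2 arrays a group; adjusted p = 2.89e-05 by limma). The median signal of an array lay between 67.3 and 69.7, and the ratio of 3′ to 5′ control probe sets for Gapdh was 0.774 to 0.782 in shLSD1 and 0.755 to 0.765 in shControl. All 12 myogenic markers examined were above the detection filter, a mean signal of 65.4, as were 0 of 5 adipocyte, 0 of 5 endothelial, 1 of 6 macrophage, 2 of 6 epithelial and 2 of 5 neuronal markers. The filter left 10879 genes for testing. RNA came from whole cultures, so fewer cells of a type and less RNA per cell cannot be told apart.

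Few ribosome biogenesis genes changed when LSD1 was depleted, and the differences were small. Of the 47 genes, 0 rose and 2 fell at an adjusted p under 0.05 (limma), or 0% and 4.26%, while 8.75% of all tested genes rose and 7.09% fell, 15.8% in all. The genes that fell were Nhp2, of the box H/ACA snoRNP, and Nolc1, a nucleolar chaperone of snoRNPs. At an unadjusted limma p under 0.05 there were 14 of 47 (29.8%), with 1 above and 13 below 0. Of all 10879 tested genes there were 3369 (31.0%), with 1811 above and 1558 below 0. Fold changes of the 47 genes ran from -0.39 for Rrp12 to 0.24 for Polr1c on the log2 scale, which is 76.3% to 118% of the shControl level. A difference beyond 0.5 on the log2 scale in either direction was measured for 0 of the 47 genes and for 10.9% of all tested genes.

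The 47 genes lay more often below 0 than above it, with 8 of them (17.0%) above, against 50.9% of all tested genes. Their median log2 fold change was -0.099, or 93.3% of shControl, and 39 of 47 (83.0%) were below 0, beside a median of 0.004 and 49.1% below 0 for all tested genes. The groups did not overlap on 33 genes, while they did not overlap on 60.1% of all tested genes. On 29 genes (61.7%) both shLSD1 arrays were below both shControl arrays, as on 29.4% of all tested genes. On 4 genes (8.51%) both shLSD1 arrays were above both shControl arrays, as on 30.7% of all tested genes, and on the other 14 the groups overlapped. These shares describe a list that was picked with results of these arrays known, and no test was made of the list. The 95% interval of the fold change lay wholly between -0.5 and 0.5 for 41 of the 47 genes (87.2%), against 61.9% of all tested genes. The fold changes of the 47 genes were also estimated more precisely, with a median SE of 0.0749, against 0.0968 for all tested genes. The 6 genes with wider limits were Rrp9, Nol6, Nol10, Rrp12, Noc3l and Ftsj3.

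**Figure D1:**
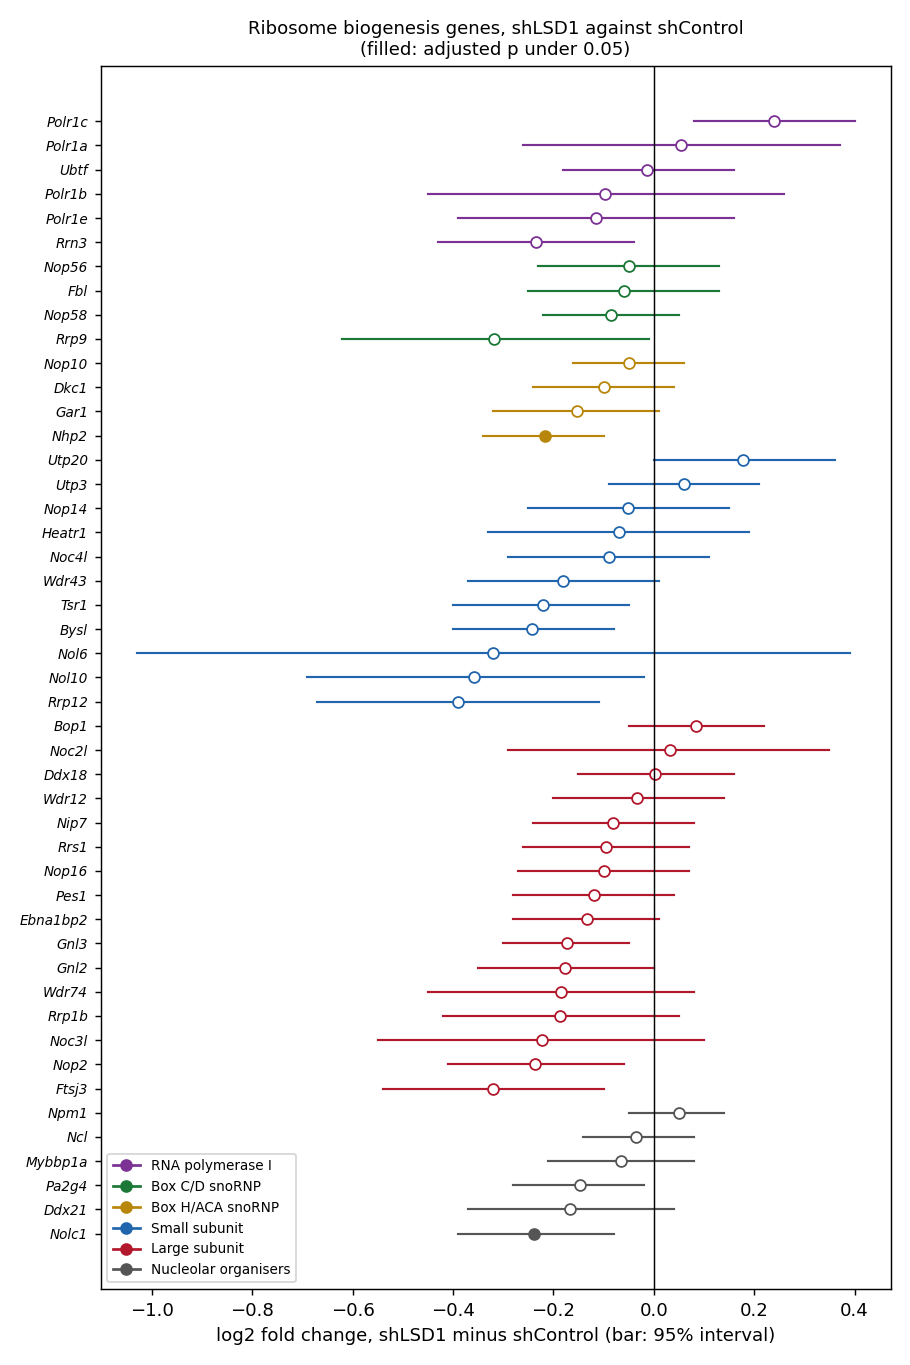
Log2 fold change (shLSD1 minus shControl) of each of the 47 genes with its 95% interval from the limma fit, coloured and grouped by role; filled points passed an adjusted p of 0.05. Most points lie left of 0, between -0.39 and 0.24, and Nhp2 and Nolc1 are the filled ones.

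**Figure D2:**
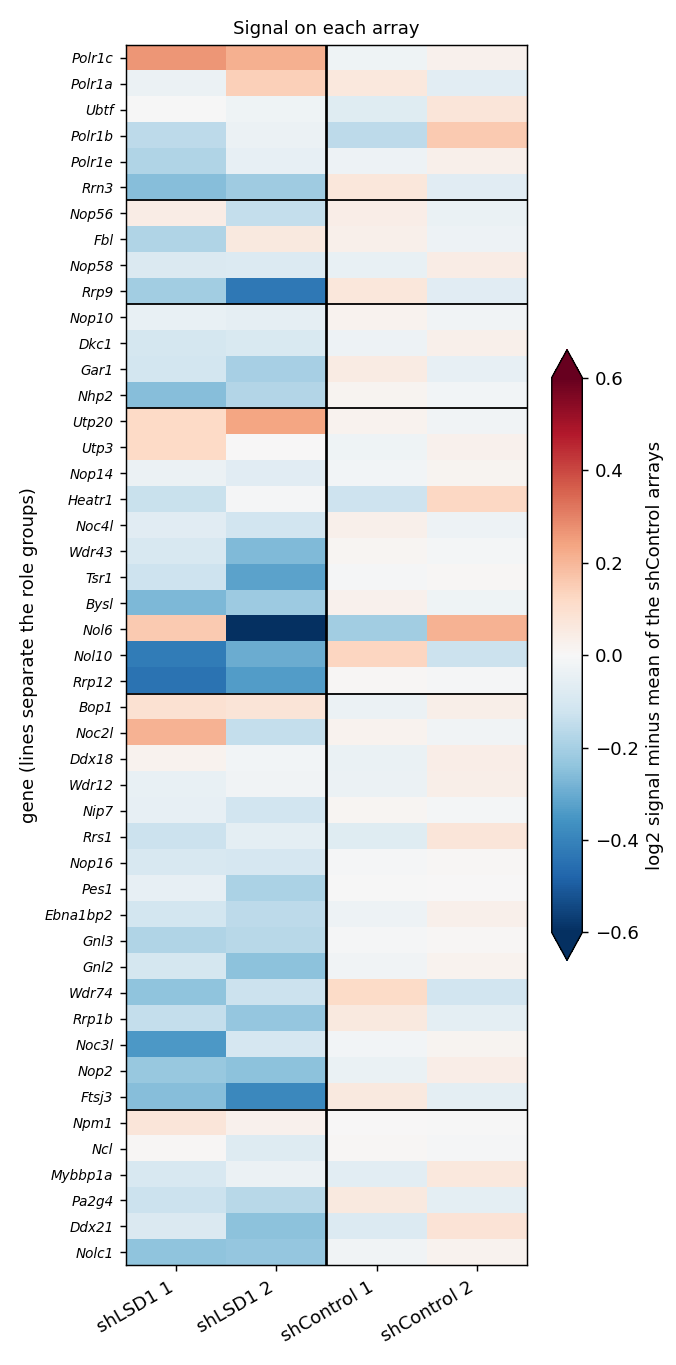
Log2 signal of each gene on each of the 4 arrays relative to the mean of its shControl arrays, with lines between the role groups; blue is lower and red is higher, and values past 0.6 take the end colour. Blue cells fill most of both shLSD1 columns, while Polr1c and Utp20 are red in both and Nol6 differs in sign between the shLSD1 arrays.

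The genes with the smallest adjusted p were Nhp2, Nolc1 and Polr1c, followed by Bysl (limma adjusted p = 0.0534). Nhp2 encodes a core protein of box H/ACA snoRNPs, which guide pseudouridylation of ribosomal RNA and also form part of telomerase. Its signal was 3905 and 4126 in shLSD1, against 4722 and 4611 in shControl, or 4015 ± 157 and 4666 ± 78.3 (SD, n = 2 each). Both shLSD1 arrays were lower, and the log2 difference of -0.22 had an SE of 0.05 (limma adjusted p = 0.0293), which is 86.0% of shControl (95% interval 79.1% to 93.6%). The other Nhp2 probe set overlapped between the groups at -0.03, and Nhp2 no longer passed when shControl replicate 1 (limma adjusted p = 0.228) or shControl replicate 2 (limma adjusted p = 0.157) was left out. It also missed when dim genes were kept in, when the variance had no intensity trend and when all probe sets of a gene were averaged.

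Nolc1 encodes a phosphoprotein that shuttles between nucleolus and cytoplasm and binds snoRNPs. Its signal was 1209 and 1218 in shLSD1, against 1410.3 and 1452 in shControl. The arrays did not overlap, and the log2 difference of -0.24 had an SE of 0.07 (limma adjusted p = 0.0479), or 84.8% of shControl (95% interval 76.3% to 94.3%). When every probe set was tested, this Nolc1 probe set missed the threshold (limma adjusted p = 0.0628). The Nhp2 probe set used still passed there (limma adjusted p = 0.0345). The other Nolc1 probe sets measured -0.18 and -0.10, and Nolc1 missed the threshold when any 1 of the 4 arrays was left out (limma adjusted p = 0.0567 to 0.249) and under the same 3 settings as Nhp2.

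Polr1c encodes a subunit that RNA polymerase I shares with RNA polymerase III. Its signal was 1499 and 1445 in shLSD1, against 1222 and 1270.45 in shControl. Both shLSD1 arrays were higher, at 0.24 (SE 0.07), but the gene missed the threshold (limma adjusted p = 0.0501). Its other probe set gave 1572 and 1437 in shLSD1, against 1264 and 1157 in shControl, a log2 difference of 0.31 (SE 0.08), with a limma adjusted p of 0.0422 when every probe set was tested. Polr1c passed without shLSD1 replicate 2 (0.27, limma adjusted p = 0.0434) and missed without each of the other 3 arrays.

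The promoter windows of these 3 genes, from 250 bases before to 50 after the annotated start in RefSeq (GRCm38.p6), are shown because they are the genes on which a call turned. Capitals mark CACGTG (the E-box that Myc and Max bind), CCGGAAGT (a motif of ETS factors), GGGCGG (the GC box) and TATAAA, on either strand.
Nhp2, chr11:51619523-51619822, plus strand: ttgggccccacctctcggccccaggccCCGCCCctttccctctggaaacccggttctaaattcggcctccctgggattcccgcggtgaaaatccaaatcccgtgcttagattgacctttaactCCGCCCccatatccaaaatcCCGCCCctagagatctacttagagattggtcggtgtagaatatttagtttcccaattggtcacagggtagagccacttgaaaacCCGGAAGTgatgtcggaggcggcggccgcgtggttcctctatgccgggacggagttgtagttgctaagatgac
Nolc1, chr19:46075597-46075896, plus strand: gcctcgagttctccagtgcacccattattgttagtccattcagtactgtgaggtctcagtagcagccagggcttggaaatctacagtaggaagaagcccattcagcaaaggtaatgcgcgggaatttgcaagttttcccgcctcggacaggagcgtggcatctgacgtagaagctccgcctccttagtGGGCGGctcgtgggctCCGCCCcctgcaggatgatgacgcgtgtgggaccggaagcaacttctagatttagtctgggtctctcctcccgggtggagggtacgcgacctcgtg
Polr1c, chr17:46247996-46248295, minus strand: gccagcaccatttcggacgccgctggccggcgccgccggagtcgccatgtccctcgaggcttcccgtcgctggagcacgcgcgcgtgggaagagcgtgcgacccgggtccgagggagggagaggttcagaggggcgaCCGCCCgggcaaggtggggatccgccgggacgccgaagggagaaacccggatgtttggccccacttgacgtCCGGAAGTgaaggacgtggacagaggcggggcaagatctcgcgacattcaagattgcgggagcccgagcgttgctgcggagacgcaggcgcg
CCGGAAGT began 23 bases before the start of Nhp2 and 42 bases before that of Polr1c, the first lower and the second higher in shLSD1. Nolc1 had no match to it, but its window held the shorter ETS motif CCGGAAG. GC boxes were found 3 times in the Nhp2 window, 2 times in that of Nolc1 and 1 time in that of Polr1c. CACGTG and TATAAA were in none of the 3 windows.

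Promoter windows were at hand for 40 of the 47 genes and for 8818 of all tested genes. CCGGAAGT was in 13 of the 40 windows (32.5%) and in 9.62% of those of tested genes. CACGTG was in 7 (17.5%, against 12.1%), GGGCGG in 32 (80.0%, against 70.3%) and TATAAA in 2 (5.0%, against 8.72%). A gene with several starts counted once. The 4 motifs marked in the windows above do not overlap one another, while CCGGAAG is part of CCGGAAGT. The marked ones are 4 of 14 searched, and they were picked after the shares were seen. The median log2 fold change was -0.133 for the 13 genes with CCGGAAGT and -0.099 for the 27 without. It was -0.181 for the 7 with CACGTG and -0.099 for the 33 without. For GGGCGG it was -0.124 with and -0.084 without, and for TATAAA -0.11 and -0.107. The E-box variants searched went the other way. Medians were -0.059 with CACATG and -0.127 without, and -0.099 with CACGCG and -0.133 without. With CATGCG the median was -0.099, and -0.114 without. The reversed CCAAT box GATTGG gave -0.049 with and -0.133 without. None of these differences was tested. A match describes the letters of the window and does not show that a factor binds there.

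Among proteins that organise the nucleolus or act broadly in it, the abundant ones differed little. Of 6 genes, 0 rose and 1, Nolc1, fell (0% and 16.7%, against 8.75% and 7.09% of all tested genes), with a median of -0.107. Npm1, the histone chaperone nucleophosmin, had a signal of 15591 and 15116 in shLSD1, against 14878 and 14794 in shControl. Its arrays did not overlap, being higher in shLSD1, yet the log2 difference was only 0.05 (95% interval -0.05 to 0.14, limma adjusted p = 0.461). Ncl, the gene for nucleolin, had 9728 and 9157 in shLSD1, against 9715 and 9618 in shControl. Those groups overlapped, with a difference of -0.03 (95% interval -0.14 to 0.08, limma adjusted p = 0.669), and the other 3 Ncl probe sets above the filter lay between -0.15 and -0.05. Pa2g4, which encodes a growth-regulating nucleolar protein that binds ErbB3, measured -0.15 (limma adjusted p = 0.118). Its other probe sets ranged from -0.21 to 0.29. Ddx21, an RNA helicase gene, measured -0.17, and its other probe set 0.04. Mybbp1a, a gene for a nucleolar partner of Myb and p53, measured -0.07.

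Of 6 genes of the RNA polymerase I machinery, 0 rose and 0 fell on the probe sets used, against 8.75% and 7.09% of all tested genes. Of these, 4 (66.7%) were below 0 and 2 above, with a median of -0.055, while 49.1% of all tested genes were below 0. The further Polr1c probe set described above was higher. Polr1a, the gene of the largest subunit, had a signal of 286 and 324 in shLSD1, against 307 and 281 in shControl. The groups overlapped, with a log2 difference of 0.05 (95% interval -0.26 to 0.37, limma adjusted p = 0.827). Polr1b, the second largest subunit, had 265 and 288 in shLSD1, against 265 and 329 in shControl, and also overlapped, at -0.10 (95% interval -0.45 to 0.26). Both probe sets were dim, and their intervals are wide.

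Ubtf, which encodes the upstream binding factor that keeps ribosomal DNA open, had 1458 and 1433 in shLSD1, against 1387 and 1533 in shControl. The shLSD1 values fell inside the shControl range, with a difference of -0.01 (95% interval -0.18 to 0.16). Rrn3, which encodes the initiation factor that tethers the polymerase to the promoter and responds to growth signals, had 729 and 751 in shLSD1, against 912 and 832 in shControl. Both shLSD1 arrays were lower, at -0.24 (SE 0.09), and it missed the threshold (limma adjusted p = 0.106). Rrn3 has 1 probe set. Polr1e, a subunit gene, measured -0.11 on both of its probe sets.

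In the box C/D snoRNP, which methylates the sugar of ribosomal RNA, the core proteins overlapped or nearly so. Fbl, the methyltransferase fibrillarin, had a signal of 2820.4 and 3332 in shLSD1, against 3259 and 3132 in shControl, a difference of -0.06 (95% interval -0.25 to 0.13). Nop56 had 1986 and 1744 in shLSD1, against 1978 and 1873 in shControl, a difference of -0.05 (95% interval -0.23 to 0.13), and its other probe set measured 0.07. For both genes 1 shLSD1 array was above and the other below the shControl arrays. Nop58, the partner of Nop56 in the particle, had 2342 and 2347 in shLSD1, against 2416 and 2562 in shControl. These did not overlap, at -0.09 (95% interval -0.22 to 0.05, limma adjusted p = 0.368). Rrp9, a protein specific to the snoRNP that directs early cleavage of the precursor, had 342 and 293 in shLSD1, against 414 and 376 in shControl. It was lower on both shLSD1 arrays, at -0.32 (SE 0.13, limma adjusted p = 0.147).

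On the probe sets used, all 4 genes of the box H/ACA snoRNP had both shLSD1 arrays below both shControl arrays. This held for 61.7% of the 47 genes and 29.4% of all tested genes. The other probe sets of Nhp2 and Nop10 overlapped between the groups, at -0.03 and -0.01. Of the 4, 1 fell, Nhp2, while 7.09% of all tested genes fell. Dkc1, the pseudouridine synthase dyskerin, had a signal of 1661 and 1673 in shLSD1, against 1746 and 1826 in shControl, a difference of -0.10 (95% interval -0.24 to 0.04, limma adjusted p = 0.323). A dimmer Dkc1 probe set had 814 and 861 in shLSD1, against 1048 and 1045 in shControl, a log2 difference of -0.32 (SE 0.08), with a limma adjusted p of 0.0351 when every probe set was tested. The last Dkc1 probe set measured -0.22. Nop10 had 4958 and 4931 in shLSD1, against 5183 and 5047 in shControl, a difference of -0.05 (95% interval -0.16 to 0.06). Gar1 measured -0.15 (95% interval -0.32 to 0.01, limma adjusted p = 0.197). The 4 fold changes thus lay between -0.22 and -0.05, with a median of -0.126.

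Among 11 factors of the small subunit, 0 rose and 0 fell, against 8.75% and 7.09% of all tested genes. Of the 11, 9 (81.8%) were below 0 and 2 above, with a median of -0.181, while 49.1% of all tested genes were below 0. Rrp12, which acts in export and late maturation of the subunit, had the lowest fold change of the 47 genes. Its signal was 274 and 296 in shLSD1, against 375 and 371 in shControl. The groups were clearly apart on these 4 arrays, at -0.39 (95% interval -0.67 to -0.11), but the gene missed the threshold (limma adjusted p = 0.0672). Bysl, which encodes bystin and acts late in maturation, had 1089 and 1130 in shLSD1, against 1338 and 1289 in shControl. It measured -0.24 (SE 0.07, limma adjusted p = 0.0534), and its other probe set -0.17. Tsr1, an assembly factor related to GTPases, measured -0.22 (limma adjusted p = 0.0881), with -0.20 on its other probe set.

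The early small subunit processome, the large particle that forms on the nascent precursor, had values on both sides of 0. Utp20, a large scaffold of the processome, had 1073 and 1164 in shLSD1, against 1003 and 973 in shControl. It was higher on both shLSD1 arrays, at 0.18 (95% interval -0.00 to 0.36, limma adjusted p = 0.165). Heatr1, which also helps transcription by RNA polymerase I, had 589.95 and 643 in shLSD1, against 594 and 704 in shControl. Those groups overlapped, at -0.07 (95% interval -0.33 to 0.19). Of other processome genes, Utp3 measured 0.06, Nop14 -0.05, Noc4l -0.09 and Wdr43 -0.18, and none of these 4 passed. Nol10 measured -0.36 with a wide interval (-0.69 to -0.02). Nol6 was the least precise of the 47, with a signal of 278 and 144 in shLSD1, against 216 and 288 in shControl, and an interval of -1.03 to 0.39. Its other probe set measured 0.38, so no direction can be read for it.

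Among 16 factors of the large subunit, 0 rose and 0 fell, against 8.75% and 7.09% of all tested genes. Of the 16, 13 (81.2%) were below 0 and 3 above, with a median of -0.127, while 49.1% of all tested genes were below 0. Bop1 and Pes1 encode proteins that work in a complex with Wdr12 and are needed to cut the precursor. Bop1 had a signal of 2121 and 2095 in shLSD1, against 1941 and 2038 in shControl, a difference of 0.08 (95% interval -0.05 to 0.22). Pes1 had 1667 and 1511 in shLSD1, against 1722 and 1728 in shControl, a difference of -0.12 (95% interval -0.28 to 0.04). Wdr12 measured -0.03 (95% interval -0.20 to 0.14). Bop1 was thus higher on both shLSD1 arrays and Pes1 lower on both, and all 3 intervals include 0.

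Ftsj3, which encodes a methyltransferase of the precursor, had the lowest value of the large subunit group. Its signal was 613 and 559.88 in shLSD1, against 761 and 704 in shControl, a difference of -0.32 (SE 0.10, limma adjusted p = 0.0601). Gnl3, which encodes nucleostemin, a nucleolar GTPase found in stem and proliferating cells, had 2487 and 2515 in shLSD1, against 2801 and 2835 in shControl. It was lower on both shLSD1 arrays, at -0.17 (SE 0.05, limma adjusted p = 0.0679). Its relative Gnl2 measured -0.18 on the probe set used, and -0.07 and 0.12 on its other probe sets. Nop2, a methyltransferase gene long used as a proliferation antigen, measured -0.24 (SE 0.08, limma adjusted p = 0.0742).

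The remaining large subunit genes, most of which encode assembly factors of the nucleolar particle, did not pass. Ebna1bp2, Rrp1b, Wdr74 and Noc3l measured -0.13 to -0.22, Nip7, Rrs1 and Nop16 -0.08 to -0.10, and Ddx18 and Noc2l 0.00 and 0.03. Ddx18, a helicase gene, had 1570.2 and 1528 in shLSD1, against 1503 and 1592 in shControl.

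Other probe sets of the same genes gave a less uniform picture. Of the 47 genes, 33 had at least 1 further probe set above the filter, and the further ones had the same sign as the probe set used for 18 genes and at least 1 opposite sign for 15. The next brightest probe set was above the filter for 32 genes. For those 32 the median was -0.020 with 19 below 0, while the probe sets used had a median of -0.092 with 26 below 0. Further probe sets with a mean signal over 256 had a median of -0.10, with 23 of 31 below 0, and those under it a median of 0.10, with 6 of 15 below 0.

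**Figure D3:**
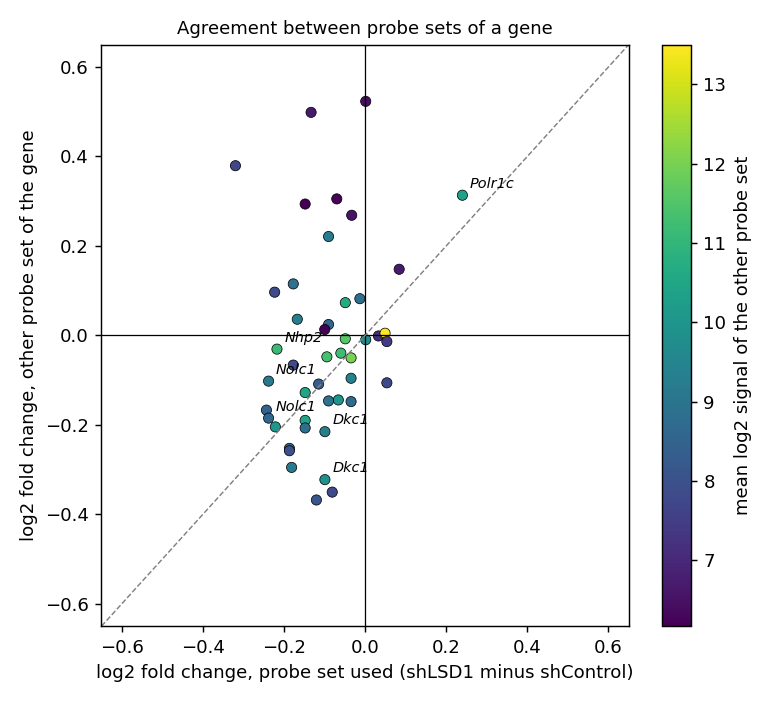
Log2 fold change (shLSD1 minus shControl) of the probe set used for each gene (horizontal) against that of each further probe set of the gene above the filter (vertical), coloured by the mean log2 signal of the further one; the dashed line marks equal values. The 46 points scatter widely, with 29 below 0 on the vertical axis, and the dimmest points reach the highest values.

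A wider set of ribosome biogenesis genes was also measured. Of 156 further genes, 144 were tested, of which 3 rose and 6 fell, or 2.08% and 4.17%, against 8.75% and 7.09% of all tested genes. Their median was -0.047 with 66.7% below 0, beside 0.004 and 49.1% for all tested genes, and no test of the list was made. The genes that rose were Wdr36 (0.36, limma adjusted p = 0.00765) and Nol7 (0.29, limma adjusted p = 0.00924), both of the small subunit pathway, and Ddx55, a helicase gene of the large subunit pathway (1.01, SE 0.20, limma adjusted p = 0.0126). Those that fell were Top1 (-0.29), the topoisomerase gene, the exosome genes Exosc7 (-0.36) and Exosc1 (-0.28), the processome gene Utp11 (-0.25), the kinase gene Riok2 (-0.33) and Nifk (-0.25), whose product binds that of Mki67. All 9 of these calls were lost without either shControl array. When all probe sets of a gene were averaged, Ddx55 measured 0.01, and Top1, Utp11 and Riok2 turned positive at 0.10, 0.04 and 0.18 with adjusted p of 0.774 to 0.883. By group, the median was 0.019 for 11 other genes listed with RNA polymerase I, among them Polr2e, Polr2f, Polr2h and Top1. Medians were -0.070 for 52 of the small subunit and -0.044 for 49 of the large subunit. They were -0.005 for 11 of snoRNP assembly and -0.058 for 21 of nucleolar RNA processing.

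Myc, the transcription factor best known for driving ribosome biogenesis, did not pass. Its signal was 758 and 721 in shLSD1, against 802 and 777 in shControl, a difference of -0.09 (SE 0.08, limma adjusted p = 0.485). Mycn was dim, at 43.3 and 96.3 in shLSD1, against 89.6 and 204 in shControl, and the groups overlapped. Its log2 difference was -1.07 (SE 0.49, limma adjusted p = 0.187), and -1.66 to -0.47 with 1 array left out. Without shLSD1 replicate 2 it measured -1.64. It passed with the replicate number as a block (limma adjusted p = 0.0156), although the labels do not say that these numbers pair the samples. Of 12 tested genes of the Myc network, 0 rose and 0 fell, against 8.75% and 7.09% of all tested genes, with a median of -0.013. At an unadjusted limma p under 0.05 there were 2 (16.7%), each above 0, against 31.0% of all tested genes.

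Markers of growth state also differed between these samples. Of 18 tested proliferation markers, 11 rose and 0 fell (61.1% and 0%, against 8.75% and 7.09% of all tested genes), with a median of 0.300. The difference between these markers and the ribosome biogenesis genes was not tested. The summed signal of the 19 proliferation markers with a probe set, tested or not, was 45236 to 45802 in shLSD1 and 38011 to 38419 in shControl. None was listed at 0. The number called higher was 3 without shControl replicate 1 and 3 without shControl replicate 2, 2 with no intensity trend, 6 of 17 with the mean of probe sets and 1 of 9 with the next brightest probe set. Of 12 myogenic markers, 6 fell and 1 rose (50% and 8.33%, against 7.09% and 8.75% of all tested genes). The summed signal of these 12 was 128145 to 137727 in shLSD1 and 172990 to 175777 in shControl. The summed signal of the 47 genes was 87243 to 88954 in shLSD1 and 92329 to 92554 in shControl. Of the neuronal markers, Map2 and Tubb3 rose, with a summed list signal of 3550 to 3612 in shLSD1 and 1944 to 2004 in shControl. Of the epithelial markers Cdh1 rose, with a summed signal of 336 to 362 in shLSD1 and 229 to 238 in shControl. The part that these markers play in the values of the ribosome biogenesis genes was not tested.

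**Figure D4:**
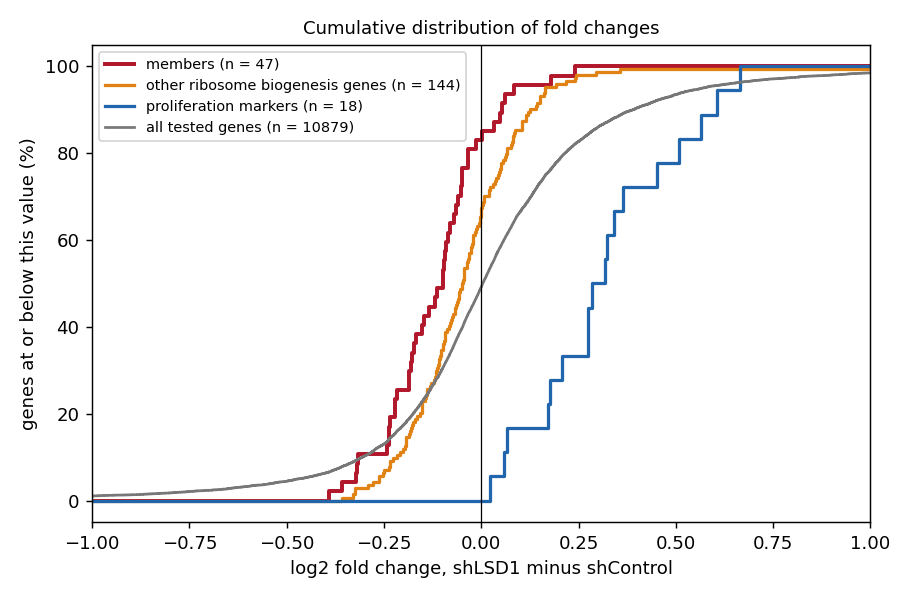
Share of genes (vertical, percent) at or below a given log2 fold change (horizontal, shLSD1 minus shControl) for the 47 genes, 144 other ribosome biogenesis genes, 18 proliferation markers and all 10879 tested genes. The curve of the 47 genes crosses 0 at 83.0% and spans a narrow range, while the proliferation markers lie wholly above 0.

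Some of the 47 genes hold snoRNA genes within their bounds in the RefSeq annotation, which the choice of genes did not use. These were 7 of 47 genes (14.9%), against 2.33% of the tested genes with an entry, with 19 snoRNA genes in all and strand not considered. They were Nop56 with 5, Nop58 with 4, Gnl3 and Wdr43 with 3 each, Ncl with 2, and Dkc1 and Tsr1 with 1 each. All 7 were below 0, between -0.22 and -0.03, with a median of -0.099, beside -0.107 for the 40 without, and 0 of the 7 passed the test. The arrays measure the host transcripts and not the snoRNAs. The 47 genes lay on 19 chromosomes, with at most 7 on 1 of them, chromosome 11.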

How the data were processed

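The authors deposited 1 signal intensity per probe set and array on a linear scale, made with MAS5 and Affymetrix Expression Console per the submitters' processing notes (versions not given in the sources used here), from 250 ng of RNA per the labels' protocols. The mean after trimming 2% of probe sets at each end was 500.003 on every array, as scaling of each array by 1 factor gives. Such scaling does not reduce the spread of dim signals on the log2 scale, which stays large. From the deposited intensity, log2 values were taken with signals under 1 set to 1 (505 to 704 of 45101 probe sets per array). Genes above the median log2 signal (6.03) were compared with limma 3.58.1 (lmFit, eBayes with an intensity trend) under R 4.3.3; tests were two-sided and p-values adjusted by Benjamini-Hochberg over 10879 genes, and 95% intervals use the moderated standard error. With 2 arrays a group, p-values measure the spread between arrays, which may be technical. Promoters came from RefSeq and figures from matplotlib 3.10.9. The members, lists and tests were chosen with earlier results of these data known. Array values are given for members past the threshold, a fixed set of 15, the extremes of each role group, and called genes of the wider lists; values of other members were added after they were seen. Alternatives were a replicate block, leaving out each array, quantile normalization, median centring, log2(signal + 32), other filters, other variance models and other probe sets. The number of arrays limits the precision.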

Additional observations from a re-analysis of the deposited data

How the results depend on the processing

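The median log2 fold change of the 47 genes stayed below 0 under all 14 alternatives. It was -0.127 to -0.091 with 1 array left out, -0.120 with median centring and -0.020 with the next brightest probe set (32 genes). The number of the 47 called lower was 2, and 0 to 4 with 1 array left out, 5 with the replicate block, 0 with no filter, with the mean of probe sets and with no intensity trend, and 1 with the next brightest probe set. The number called higher was 0, and 0 to 1 with 1 array left out, and 1, Polr1c, with the replicate block, log2(signal + 32), the stricter filter, robust variance and the next brightest probe set. Of the 144 other genes, 3 were called higher and 6 lower; leaving out 1 array gave 0 to 4 higher and 0 to 12 lower. Without the intensity trend these were 1 and 0, with the mean of probe sets 0 and 2, and with the next brightest probe set 1 and 1. Of all tested genes, 952 were called higher and 771 lower, and 349 to 1151 higher and 228 to 1041 lower with 1 array left out, 375 and 262 without the trend, 494 and 407 with the mean of probe sets (10050 genes), and 254 and 225 with the next brightest probe set (5199 genes). Kdm1a stayed between -2.50 and -2.15 and passed throughout. Differences near 0 changed sign when 1 array was left out, with ranges of -0.08 to 0.01 for Ncl, -0.18 to 0.06 for Fbl, -0.14 to 0.04 for Nop56, -0.03 to 0.14 for Polr1a, -0.25 to 0.06 for Polr1b, -0.09 to 0.06 for Ubtf and -0.19 to 0.05 for Heatr1. With the next brightest probe set Nop56 was at 0.07, Polr1a at -0.11, Ubtf at 0.08, Heatr1 at 0.31 and Exosc1 at 0.02, and with the mean of probe sets Nop56 was at 0.01, Ubtf at 0.03, Top1 at 0.10, Utp11 at 0.04 and Riok2 at 0.18. The cause of these shifts was not tested. Calls also turned on other members, and leaving out 1 array changed which members were called. The calls that follow are from settings that kept all 4 arrays. Bysl was called lower with the replicate block, median centring, the stricter filter and robust variance. Ftsj3 was called lower with the replicate block and quantile normalization, Tsr1 with the block, and Dkc1 with the next brightest probe set. The replicate numbers are shared between groups, but the correlation of their deviations over tested genes was 0.00287. That value cannot show whether equal numbers mark a shared culture or batch, which the labels do not say.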
